A study of Mus musculus with 82 samples.

Results

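The genes described are Sall1, Sall3 and Sall4, taken as 3 named members of the 24756 curated RefSeq genes counted, together with 200 kb on either side of Sall1. Nascent RNA, the RNA still held by an engaged polymerase, was read in mouse embryonic stem (ES) cells of the v6.5 line, an F1 hybrid of a pair of inbred strains grown in serum with leukaemia inhibitory factor. All groups shared this line and culture and differed in the assay and in the batches, with no genotype or treatment compared. In AGTuC, a run-on with click-compatible nucleotides was done on bulk nuclei opened by detergent. In inAGTuC the nuclei stayed intact and were pooled in wells, and in scGRO-seq each intact nucleus was barcoded on its own in a well of a plate. In the bulk assays, a higher level per cell and more cells transcribing the gene cannot be told apart.

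SALL proteins are zinc-finger transcription factors related to Drosophila spalt, and they recruit the NuRD histone deacetylase and remodelling complex to repress target genes. Sall4 is a core regulator of the pluripotent state of ES cells. Sall1 is also expressed in ES cells and is later needed for kidney development. Sall3 is a close relative that is active in the developing nervous system.

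All 3 genes lie on the minus strand of their chromosomes in GRCm38. Sall1 spans chr8:89027242-89044162, Sall3 chr18:80966997-80987021 and Sall4 chr2:168748332-168767201. The annotation gives Sall1 3 transcripts with different starts, at 89044162, 89043512 and 89042862, and 1 shared end. An uncharacterized gene on the plus strand, Gm3134 (chr8:89041243-89071019), overlaps the 5′ end of Sall1, so that plus-strand reads there are antisense to Sall1 and sense to Gm3134.

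A unit of scGRO-seq was 1 batch, with the reads of its kept cells summed. There were 10 such batches with 2518 kept cells, 4 inAGTuC libraries and 2 AGTuC libraries. The depth was 223119 to 4928371 reads per scGRO-seq batch, 623265 to 1462003 per inAGTuC library, and 2231837 and 4755740 in AGTuC. Both AGTuC libraries came from 1 batch, so the assay and its batch cannot be told apart. No label says that libraries of 1 batch came from separate cultures, and p-values then measure only the spread between these units. Of the 7 ES cell markers listed, all had reads in each assay, with a mean level between 2.08 and 10.6 reads per kb per 1000000 reads over scGRO-seq batches, where Exp156 was highest and the next batch at 4.51. Their mean level was between 2.21 and 6.06 in inAGTuC, and 13.5 and 14.4 in AGTuC. The 7 fibroblast markers had a mean level between 0.0678 and 0.355 in scGRO-seq, between 0.0735 and 0.246 in inAGTuC, and 0.0467 and 0.0881 in AGTuC, where 4 of the 7 had no read. The mean level of 4 neural markers was 0.142 to 1.84, 0.398 to 1.01, and 3.03 and 3.26 in the same order, that of 5 primitive endoderm markers 0.116 to 2.53, 0.323 to 0.371, and 0.238 and 0.243, and that of 3 counted mesoderm markers at most 0.424 in any unit. The highest of the primitive endoderm values was that of batch Exp263, which held 30 of the 41 scGRO-seq reads of Foxa2, and the next batch was at 0.583.

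The sequences at the starts are shown because the AGTuC reads of Sall1 gathered there, on both strands. Each runs from 250 bases before to 50 bases after the start, 5′ to 3′ on the strand of the gene, as given by RefSeq for GRCm38.p6. Capitals mark the GC box GGGCGG on either strand.
Sall1 start 1: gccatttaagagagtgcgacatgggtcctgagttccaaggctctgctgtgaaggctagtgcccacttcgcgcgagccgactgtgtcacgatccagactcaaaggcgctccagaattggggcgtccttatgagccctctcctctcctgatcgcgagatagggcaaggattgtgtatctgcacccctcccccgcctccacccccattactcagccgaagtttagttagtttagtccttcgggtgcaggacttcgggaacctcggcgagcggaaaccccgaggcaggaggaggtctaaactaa
Sall1 start 2: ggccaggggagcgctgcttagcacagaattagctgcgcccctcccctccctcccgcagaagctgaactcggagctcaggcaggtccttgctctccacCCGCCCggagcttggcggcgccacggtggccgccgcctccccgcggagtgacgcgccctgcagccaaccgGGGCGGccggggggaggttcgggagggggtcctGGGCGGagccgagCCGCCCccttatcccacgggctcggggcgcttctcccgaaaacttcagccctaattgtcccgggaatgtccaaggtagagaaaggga
Sall1 start 3: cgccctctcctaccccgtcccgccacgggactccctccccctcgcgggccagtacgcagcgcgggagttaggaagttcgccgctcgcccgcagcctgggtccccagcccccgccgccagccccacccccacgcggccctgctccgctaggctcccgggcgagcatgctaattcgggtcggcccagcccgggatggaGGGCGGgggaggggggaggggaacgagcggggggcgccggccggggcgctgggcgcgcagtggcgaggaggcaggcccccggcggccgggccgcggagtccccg
Gm3134 start 1: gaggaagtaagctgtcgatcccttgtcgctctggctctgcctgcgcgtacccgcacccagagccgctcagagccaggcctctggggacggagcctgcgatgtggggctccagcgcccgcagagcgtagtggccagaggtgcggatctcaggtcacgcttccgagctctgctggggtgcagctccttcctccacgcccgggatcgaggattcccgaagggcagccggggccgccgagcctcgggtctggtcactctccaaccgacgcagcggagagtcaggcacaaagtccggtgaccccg

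The windows are chr8:89044113-89044412, chr8:89043463-89043762 and chr8:89042813-89043112 on the minus strand for Sall1 and chr8:89040993-89041292 on the plus strand for Gm3134. The share of G and C was 57.3% at the first start, 70% at the second and 79.7% at the last, against a median of 52.7% over 32851 promoters of the same length. The GC box occurred 4 times at the second start and once at the last, and 35.7% of all promoters held it. The letters CCAAT occurred once at the first start and in 37.4% of all promoters. Neither TATAAA nor the octamer ATGCAAAT occurred in any of the 4 windows, and they occurred in 13.6% and 1.74% of promoters. All motifs were searched on both strands.

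Body levels were measured as sense reads in the gene span without 500 bp at each end, per kb per 1000000 reads of the unit. For Sall1 this body keeps the reads at its later starts. From 500 bp after the last start to the gene end, the pooled Sall1 level was 2.18 in scGRO-seq, 2.40 in inAGTuC and 5.31 in AGTuC. Sall1 and Sall4 were transcribed at the same order of magnitude in every assay, and Sall3 far below both. Over scGRO-seq batches the level of Sall1 ran from 1.17 to 4.50 with a median of 1.85 and a mean of 2.36 ± 1.23 (SD, n = 10). It was 2.02, 3.29, 2.19 and 2.42 in the inAGTuC libraries and 6.95 and 6.62 in the AGTuC libraries. Both AGTuC libraries stood above all other units, while inAGTuC lay inside the range of the batches. The level of Sall4 ran from 1.17 to 4.51 over batches with a median of 2.18, was 2.07, 3.20, 1.15 and 3.27 in inAGTuC, and was 8.27 and 8.01 in AGTuC, again above all other units. The level of Sall3 ran from 0.130 to 0.471 with a median of 0.313, was 0.337, 0.128, 0.0719 and 0.361 in inAGTuC, and was 0.353 and 0.420 in AGTuC. For Sall3 the 3 assays overlapped. Sall2, the remaining gene of the family, was at 0.793 ± 0.687 (SD, n = 10) in scGRO-seq, 0.362 ± 0.0913 (SD, n = 4) in inAGTuC and 0.621 ± 0.149 (SD, n = 2) in AGTuC. Its scGRO-seq mean rests in part on batch Exp260b, at 2.63, with the next batch at 0.992.

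**Figure D1:**
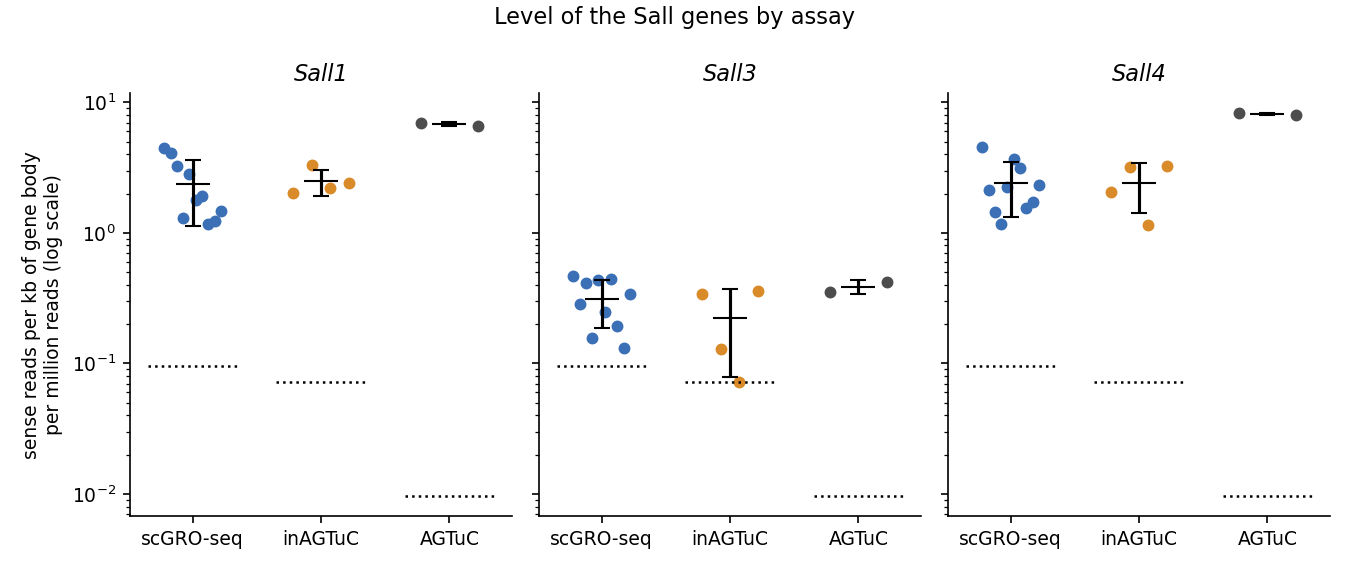
Body level of the Sall genes by assay, in sense reads per kb per 1000000 reads on a log axis. Points are scGRO-seq batches or libraries, bars the mean with 1 SD, and dotted lines the mean level more than 50 kb from any gene. The AGTuC points of Sall1 and Sall4 lie above all others, and 1 inAGTuC point of Sall3 lies on the dotted line.

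The level where no gene lies within 50 kb, over 891436 kb, was 0.0958 ± 0.0345 (SD, n = 10) in scGRO-seq, 0.0719 ± 0.0138 (SD, n = 4) in inAGTuC and 0.00955 ± 0.000180 (SD, n = 2) in AGTuC. The mean level of Sall1 was 24.6 times this level in scGRO-seq, 34.4 times in inAGTuC and 710 times in AGTuC. For Sall4 the ratios were 25, 33.7 and 852. For Sall3 they were 3.26, 3.12 and 40.5, so that the single-cell reads of Sall3 stood close to the reads found away from genes. All 10 batches and both AGTuC libraries had Sall3 above that level, and so did 3 of 4 inAGTuC libraries.

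Between assays, body reads of all genes were compared with limma voom, with Benjamini-Hochberg adjustment over 14769 genes tested. Sall1 and Sall4 were lower in scGRO-seq than in AGTuC, 2 of the 3 members, in a comparison that called 45.3% of all genes tested, 27.2% as lower and 18.2% as higher. The log2 difference was -1.75 (SE 0.419, limma adjusted p = 0.00111) for Sall1 and -1.93 (SE 0.419, limma adjusted p = 0.000416) for Sall4. Sall3 differed by -0.30 (SE 0.492, limma adjusted p = 0.633). The median over all genes was -0.495. Between inAGTuC and AGTuC, where 28.9% of all genes tested were called, 12.7% as lower and 16.2% as higher, Sall1 differed by -1.46 (SE 0.468, limma adjusted p = 0.0176) and Sall4 by -1.86 (SE 0.471, limma adjusted p = 0.00307). Sall3 differed by -0.94 (SE 0.605, limma adjusted p = 0.248), and the median over all genes was -0.301. Both comparisons share the AGTuC libraries. In both, the body of Sall1 held the reads at its later starts, whose part in the differences was not tested. The lower level of Sall1 in inAGTuC did not pass the test when either AGTuC library was left out (limma adjusted p = 0.124 both times) or when all deposited reads were counted (limma adjusted p = 0.0502). That of Sall4 did not pass without the second AGTuC library (limma adjusted p = 0.0559). With 1 AGTuC library left, its spread is taken from the other units. The level away from genes moved in the opposite direction between the assays. With it taken off each unit, the log2 ratio of mean levels between scGRO-seq and AGTuC was -1.58 for Sall1 and -1.83 for Sall4, and between inAGTuC and AGTuC it was -1.49 and -1.79. For Sall3 the same ratios were -0.80 and -1.30. These ratios of means are not limma estimates, so they differ from the values above by more than the subtraction.

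No gene was called between scGRO-seq and inAGTuC by limma voom (0% of genes tested), where 726 had an unadjusted p under 0.05. limma-trend called 0 as well, limma voom with single libraries as units called 6, and without inAGTuC library Exp261_c16 it called 32. With batch as a fixed term it called 5. The log2 difference was -0.29 (SE 0.352) for Sall1, 0.64 (SE 0.508) for Sall3 and -0.08 (SE 0.352) for Sall4, with limma adjusted p-values of 0.989, 0.973 and 0.998. Batch Exp208 held both assays. There Sall1 was at 3.23 in scGRO-seq against 2.02 and 3.29 in inAGTuC, and Sall3 at 0.416 against 0.337 and 0.128. Sall4 was at 1.44 in scGRO-seq, below 2.07 and 3.20 in inAGTuC. With batch as a fixed term, which rests on Exp208, the log2 difference was 0.33 for Sall1, 0.99 for Sall3 and -0.81 for Sall4, with limma adjusted p-values of 0.939, 0.862 and 0.806.

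Genes that work with the SALL proteins were counted in the same fit. Of 14 NuRD subunits, 6 were lower in scGRO-seq than in AGTuC and none was higher, beside 27.2% of all genes tested called lower there. Their median log2 difference was -0.786, against -0.495 over all genes. Between inAGTuC and AGTuC 5 were lower, beside 12.7% of all genes, with a median of -0.859 against -0.301. Gatad2a, a subunit that links the deacetylase and remodelling parts of NuRD, differed by -1.21 (SE 0.408, limma adjusted p = 0.0162) between scGRO-seq and AGTuC. Chd4, the remodelling ATPase, differed by 0.07 (SE 0.401) and Mta3, a scaffold subunit, by -0.37 (SE 0.419), and neither passed the test. Of 9 pluripotency regulators, 7 were lower than in AGTuC in each assay on intact nuclei, beside the same 27.2% and 12.7% of all genes, with medians of -1.844 in scGRO-seq and -1.981 in inAGTuC. Esrrb, a nuclear receptor of the pluripotency network, differed by -1.67 (SE 0.437, limma adjusted p = 0.00247) and Tfcp2l1, a transcription factor of naive ES cells, by -1.84 (SE 0.465, limma adjusted p = 0.00182) between scGRO-seq and AGTuC. Zfp42 (Rex1), a marker of naive ES cells, differed by -1.03 (SE 0.446, limma adjusted p = 0.0580). No gene of either list was called between scGRO-seq and inAGTuC.

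Markers of other cell types did not all move one way between scGRO-seq and AGTuC. Of 3 neural markers tested, Sox1 was lower by -4.00 on the log2 scale (SE 0.545, limma adjusted p = 2.05e-06), with 23 body reads in scGRO-seq and 239 in AGTuC. Pax6 was higher (limma adjusted p = 7.00e-05), with 125 reads in scGRO-seq and 1 in AGTuC, and Nes was not called (limma adjusted p = 0.301). Both fibroblast markers tested were higher, Twist2 with 66 reads against 2 (limma adjusted p = 9.92e-05) and Col1a1 by 2.16 (SE 0.728, limma adjusted p = 0.0158), and 60 of the 113 scGRO-seq reads of Col1a1 came from batch Exp260b. Over scGRO-seq batches the mean level of the 7 fibroblast markers ran from 0.0678 to 0.355. The level away from genes was 0.0958 in scGRO-seq and 0.00955 in AGTuC, and its part in these calls was not tested. Of 3 primitive endoderm markers tested, none was called. Between inAGTuC and AGTuC, Sox1 was again lower and Pax6 and Twist2 higher. Their part in the values of the Sall genes was not tested.

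Of the neighbours of Sall1, Gm3134 was lower in scGRO-seq than in AGTuC by -1.95 (SE 0.431, limma adjusted p = 0.000508) and lower in inAGTuC by -1.43 (SE 0.479, limma adjusted p = 0.0229), whereas Cyld, a deubiquitinase gene, was called in neither (-0.41, SE 0.451, and -0.43, SE 0.512).

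Compared with each other within batches, Sall1 and Sall4 had no consistent order. The mean log2 ratio of Sall1 to Sall4 over 10 batches was -0.06 ± 0.710 (SD), with Sall1 higher in 5 of 10 (exact sign-flip test, two-sided, p = 0.777). It was 0.125 ± 0.571 (SD) over the 4 inAGTuC libraries and -0.251 and -0.276 in AGTuC. Sall1 was 6.46 times as high as Sall3 and Sall4 6.74 times, in 10 of 10 batches each (exact sign-flip test, adjusted p = 0.00293 over 3 pairs, from the smallest p that 10 batches can give, 0.00195). In AGTuC the log2 ratio was 4.25 and 3.96 for Sall1 to Sall3 and 4.50 and 4.24 for Sall4 to Sall3, against 2.69 and 2.75 in scGRO-seq. With the level away from genes taken off, the log2 ratios of the mean scGRO-seq levels were 3.39 and 3.41. These are ratios of means and not means of log2 ratios, so the change is not that of the subtraction alone.

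Over the 16 units, the genes with levels most like those of Sall1 were Atmin (Pearson r = 0.934), Pank4 (r = 0.924) and Patz1 (r = 0.923), and those most like Sall4 were Cipc (r = 0.95), Eif5a (r = 0.948) and Cggbp1 (r = 0.943), among 9462 genes with at least 200 reads. Sall1 and Sall4 correlated at 0.73 over these units and at 0.475 over the 10 batches. The units share assays and depth, and these values are a description.

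Sense reads outnumbered antisense reads over the span of all 3 genes when pooled by assay, but for Sall3 not in most batches. For Sall1 there were 434 sense and 177 antisense reads in scGRO-seq, 181 and 87 in inAGTuC, and 802 and 229 in AGTuC. For Sall4 there were 463 and 195, 200 and 73, and 1108 and 95. For Sall3 there were 83 and 56, 19 and 13, and 61 and 38. The mean log2 ratio of sense to antisense over batches was 1.78 for Sall1 and 1.64 for Sall4, above 0 in 10 of 10 batches each (exact sign-flip test, adjusted p = 0.00293 over 3 genes). For Sall3 it was 0.17, above 0 in 4 of 10 (exact sign-flip test, p = 0.547). In AGTuC the log2 ratio was 3.90 and 3.38 for Sall4, 1.98 and 1.73 for Sall1, and 0.401 and 0.780 for Sall3.

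The antisense reads of Sall1 fell in different places by assay. In AGTuC 182 of them lay on the 2.92 kb shared with Gm3134, a pooled level of 8.92, and 47 on the other 14 kb, a level of 0.480. In scGRO-seq 42 lay on the shared part, a level of 1.24, and 135 on the rest, a level of 0.829. In inAGTuC the levels were 1.41 and 1.13. AGTuC was thus highest where Gm3134 begins and lowest over the remaining span.

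On the sense strand, AGTuC reads gathered at the annotated starts. In the 500 bp after each start of Sall1, in the order above, there were 47, 78 and 106 AGTuC reads. In the same windows there were 8, 16 and 21 scGRO-seq reads and 7, 8 and 8 inAGTuC reads. From the first start to 500 bp after the last, the pooled level was 19.2 in AGTuC against 5.31 over the rest of the span. In scGRO-seq the same levels were 2.43 and 2.18, and in inAGTuC 2.93 and 2.40. Minus-strand reads also continued upstream of the first annotated start, within Gm3134, at 4.18 over 5 kb in AGTuC, 0.825 in scGRO-seq and 1.28 in inAGTuC. On the plus strand of these 5 kb the levels were 5.07, 1.08 and 1.28.

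**Figure D2:**
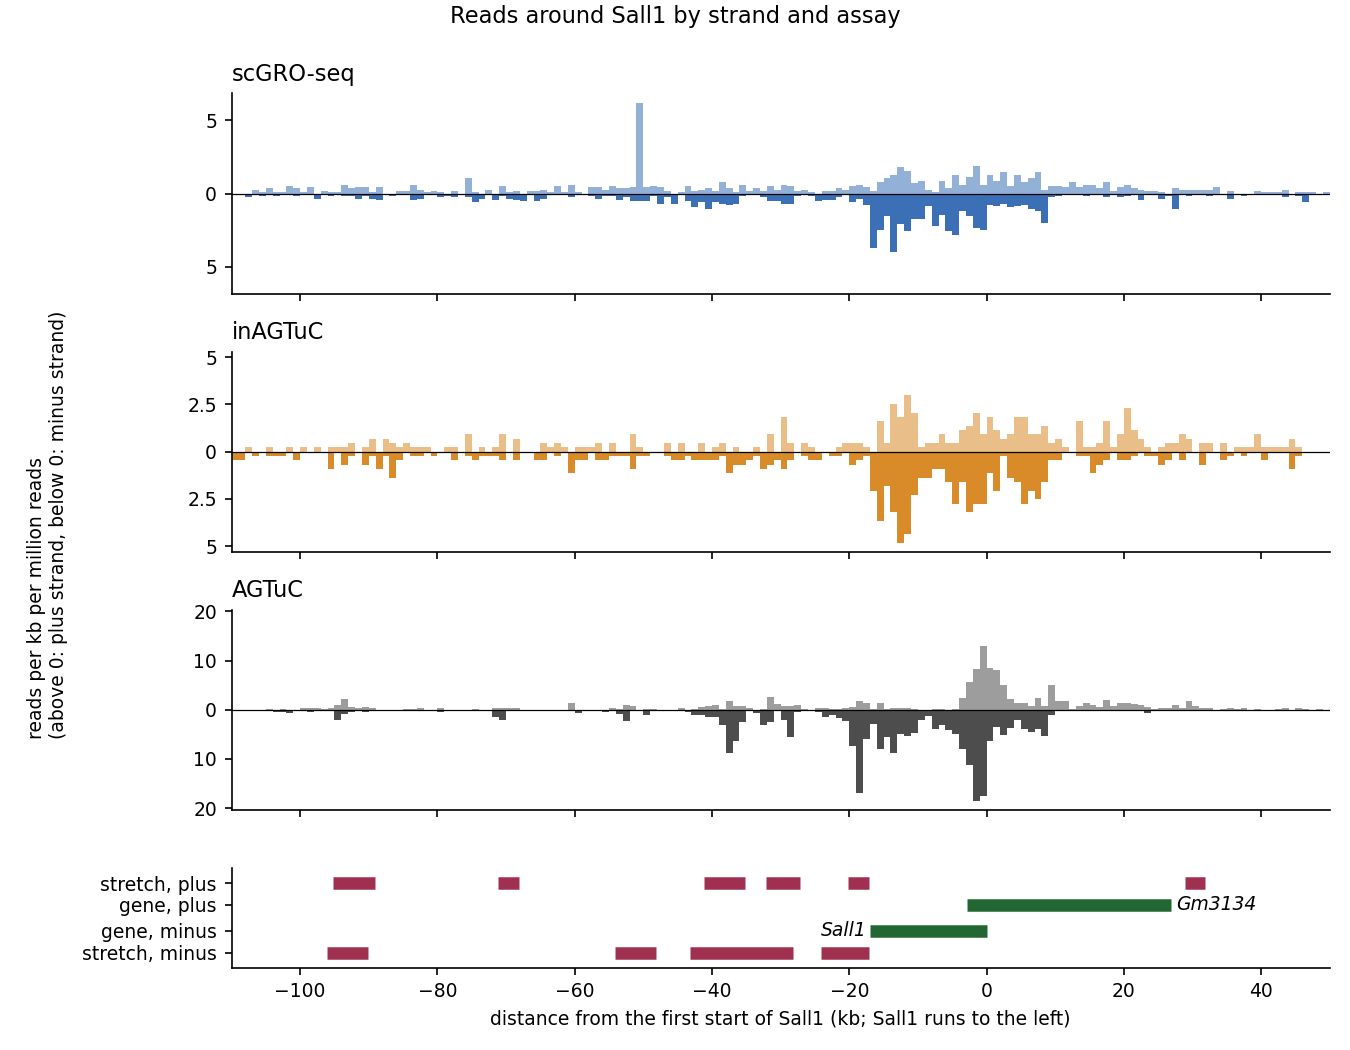
Reads around Sall1 in 1 kb bins, pooled by assay, in reads per kb per 1000000 reads, with the plus strand above and the minus strand below 0 and a different vertical scale in each panel. The bottom panel marks genes and the stretches called outside genes. The AGTuC panel peaks at the start of Sall1 on both strands and just past its end on the minus strand, and the tall plus-strand bar of scGRO-seq at -51.2 kb comes almost wholly from batch Exp260b.

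The promoter share, the percentage of sense reads of the span within 500 bp of the first start, rested on few reads. For Sall1 it was 8 of 434 pooled scGRO-seq reads, 1.84% (95% Wilson interval 0.937 to 3.59), 7 of 181 inAGTuC reads, 3.87% (1.89 to 7.77), and 47 of 802 AGTuC reads, 5.86% (4.44 to 7.71). For Sall4 it was 3.02% (1.81 to 5.01), 3.00% (1.38 to 6.39) and 6.86% (5.52 to 8.50). For Sall3 it was 8 of 83 reads, 9.64% (4.97 to 17.9), 1 of 19 reads, 5.26% (0.935 to 24.6), and 7 of 61 reads, 11.5% (5.67 to 21.8). The intervals cover counting error only. For Sall1 the window leaves out the reads at the later starts. From the first start to 500 bp after the last there were 51 of 434 scGRO-seq reads and 23 of 181 inAGTuC reads. In AGTuC there were 241 of 802. By unit, 8 of 10 batches had no promoter read of Sall1, and the libraries had 3.89% and 6.79% in AGTuC and 12.5%, 2.17%, 3.70% and 1.75% in inAGTuC. The mean share of Sall1 was 0.655% ± 1.39 (SD, n = 10) in scGRO-seq, 5.03% ± 5.05 (SD, n = 4) in inAGTuC and 5.34% ± 2.05 (SD, n = 2) in AGTuC. For Sall3 the mean over units was 2.68% ± 5.66 (SD, n = 10), 8.33% ± 16.7 (SD, n = 4) and 9.79% ± 5.01 (SD, n = 2) in the same order, so that scGRO-seq was above inAGTuC in the pooled reads and below it by unit. For Sall4 the means were 2.48% ± 2.86 (SD, n = 10), 3.72% ± 5.43 (SD, n = 4) and 7.13% ± 1.12 (SD, n = 2). For Sall1, the difference between scGRO-seq and AGTuC had an exact permutation p of 0.0152, the smallest that 10 against 2 allows, and 0.0682 after adjustment over 9 tests. The difference of Sall1 between scGRO-seq and inAGTuC had an exact permutation p of 0.00799, also 0.0682 after adjustment. No promoter share differed past an adjusted p of 0.05 in these 9 tests. Those of inAGTuC against AGTuC could not, since the smallest exact permutation p that 4 against 2 allows is 0.0667. Without batch Exp208 or without batch Exp236 the difference of Sall1 between scGRO-seq and inAGTuC passed (exact permutation test, adjusted p = 0.0378 both times). Without inAGTuC library Exp208_c12 it went from -4.38 to -1.89 points (exact permutation test, adjusted p = 0.126), and with a window of 1000 bp it was 0.26 points (exact permutation test, adjusted p = 0.956). Between inAGTuC and AGTuC, Sall1 differed by -0.307 points with 500 bp and -6.75 with 1000 bp, and Sall3 by -1.46 and -14.17. The pooled share of Sall1 with 1000 bp was 6.68% in scGRO-seq, 6.63% in inAGTuC and 15.3% in AGTuC.

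Past the end of Sall1 and Sall4, AGTuC held more reads relative to the body of the gene than any unit of the assays on intact nuclei. In the 5 kb after the end of Sall1, on its strand, there were 64 and 177 reads in the AGTuC libraries, 7 in inAGTuC and 24 in scGRO-seq, 15 of them in batch Exp236. Relative to the body level of the same unit, with 0.5 reads added, this was 83% and 113% in AGTuC, 11% to 23.3% in inAGTuC and 6.01% to 69.2% in scGRO-seq. After Sall4 there were 124 and 233 reads in AGTuC, 9 in inAGTuC and 23 in scGRO-seq, or 135% and 122%, 5.86% to 26.3%, and 4.52% to 49.1% of the body level. AGTuC did not overlap the other assays for either gene. After Sall3 there were 8, 5 and 13 reads, and the geometric means were 52.2% in AGTuC, 112% in inAGTuC and 99.1% in scGRO-seq, with overlapping units. Where a unit had no read in the window, its percentage comes from the added 0.5 reads. This holds for the lowest scGRO-seq values of Sall1 and Sall4. For Sall3 it holds for several batches and inAGTuC libraries, at 42.3% or 76.1%.

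The geometric mean for Sall1 was 17.6% in scGRO-seq against 96.7% in AGTuC, a log2 difference of -2.46, and for Sall4 18.5% against 128%, a log2 difference of -2.80. Each had an exact permutation p of 0.0152, the smallest possible, and 0.0682 after adjustment over 18 tests. These 18 tests, of the window past the end and of antisense reads, were chosen after the profile had been seen. Most other genes lay the same way. Among 2712 other genes with no gene in the 5 kb past their end and at least 100 body reads in each assay, the median was 31.9% in scGRO-seq, 31% in inAGTuC and 168% in AGTuC, and 94.2% of them were lower in scGRO-seq than in AGTuC.

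Antisense reads over the body were compared in the same way. The antisense level was 31.3% of the sense level for Sall4 in scGRO-seq (geometric mean), 34.3% in inAGTuC and 7.28% in AGTuC. For Sall3 it was 84.7%, 76% and 20.4%, and for Sall1 28.5%, 43.7% and 20.1%. The differences between scGRO-seq and AGTuC had exact permutation p-values of 0.0152 for Sall4 and Sall3, 0.0682 after adjustment, and 0.500 for Sall1. The Sall1 values include the part shared with Gm3134, where antisense reads are sense to that gene. Outside that part the pooled antisense level of Sall1 was 0.829 in scGRO-seq, 1.13 in inAGTuC and 0.480 in AGTuC, and no test was made there. Of 3407 other genes that overlap no gene, 96.1% had a higher antisense percentage in scGRO-seq than in AGTuC, with medians of 38.7% and 2.58%.

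**Figure D3:**
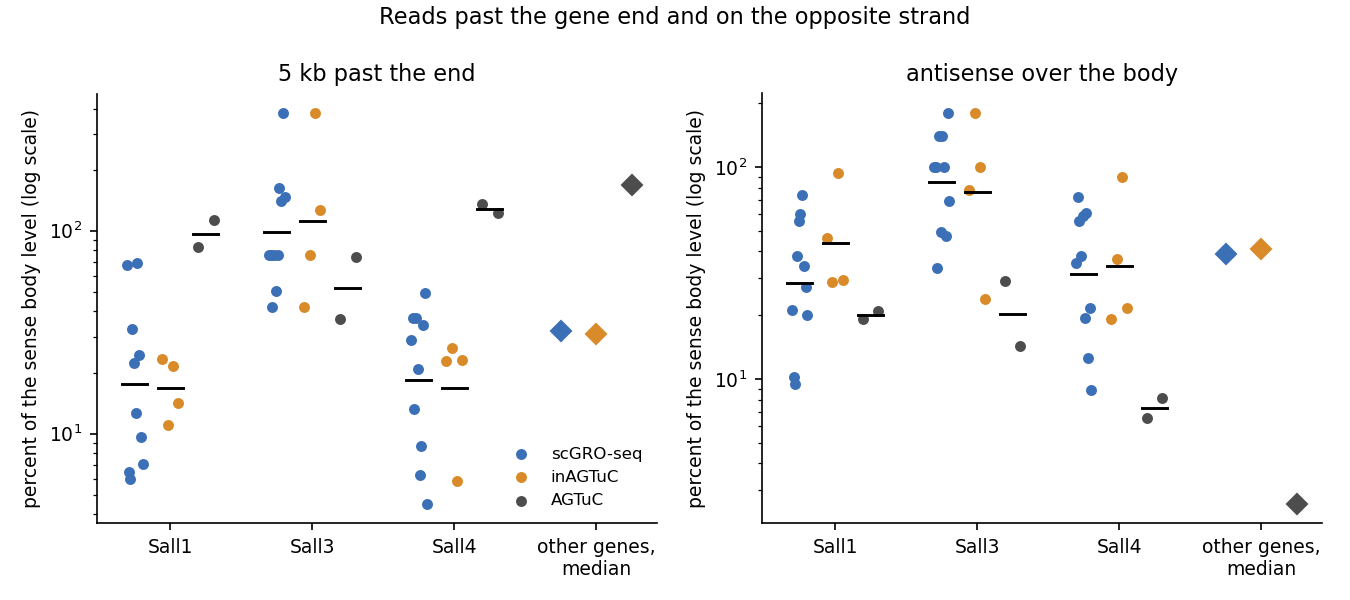
Level in the 5 kb past the gene end (left) and antisense level over the body (right), each as a percentage of the sense body level of the same unit on a log axis. Points are batches or libraries, bars geometric means, and diamonds the medians over other genes. For Sall1 and for Sall4, the AGTuC points lie above the other points of the same gene on the left, and for Sall4 below them on the right.

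Outside the spans of curated RefSeq genes, small RNA genes left aside, 10 stretches within 200 kb of Sall1 were transcribed in the bulk assays. They covered 60 kb with each strand counted on its own. The stretches are named S1 to S10 by position, and not all are separate places. S1 overlaps S2 on the opposite strand, S5 overlaps S6 and S7, and S8 overlaps S9. Bins of 1 kb on 1 strand were used where they held at least 5 times the mean of 0.866 reads per intergenic bin. Such bins were joined over gaps of at most 2 kb, and runs of at least 3 kb, gaps included, were kept. The choice used pooled AGTuC and inAGTuC reads. The AGTuC and inAGTuC levels of the stretches are therefore a description. Of the 10, 9 lay past the end of Sall1 and 1 before its start, and 6 were on the plus strand. The 1 before its start was S10, chr8:89073001-89076000, on the strand of Gm3134 and past the end of that gene at 89071019. Reads in S10 from polymerases that had passed the end of Gm3134 and reads started within it cannot be told apart. The stretch called S8, chr8:89020001-89027000 on the minus strand, began 0.242 kb past the end of Sall1 and overlaps the window past the end described above. The microRNA gene Mir8110 overlaps S8 and also S9, chr8:89024001-89027000 on the plus strand. Reads there from polymerases that had passed the end of Sall1 and reads started within S8 cannot be told apart. The longest stretch was S5, chr8:89001001-89016000 on the minus strand, 15 kb long and 11.2 kb past the end.

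The 300 bases of S8, the stretch with the highest AGTuC level, that held most AGTuC and inAGTuC read positions are shown, minus strand, 5′ to 3′, from GRCm38.p6. They are chr8:89025703-89026002, with 60 such positions. Capitals mark the 30 bases with most positions, 12 in all.
S8: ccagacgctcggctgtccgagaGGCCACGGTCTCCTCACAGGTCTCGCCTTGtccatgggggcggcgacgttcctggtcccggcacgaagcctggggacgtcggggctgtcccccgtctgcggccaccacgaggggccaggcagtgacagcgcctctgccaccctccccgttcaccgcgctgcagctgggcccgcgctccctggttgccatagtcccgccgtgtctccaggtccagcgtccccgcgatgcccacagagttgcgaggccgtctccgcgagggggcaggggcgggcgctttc

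Of these bases of S8, 72.3% were G or C, and the GC box GGGCGG occurred 2 times. The scGRO-seq reads had 2 positions in the window.

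S8 held 70 and 188 reads in the AGTuC libraries, which is 64.5% and 85.3% of the body level of Sall1. It held 1, 0, 4 and 2 reads in inAGTuC, or 11.4%, 0%, 17.8% and 8.12%. In scGRO-seq it held 33 reads, 19 of them in batch Exp236, with 3 of 10 batches at 0 and the highest, Exp156, at 42.6%. The mean over batches was 18.3% ± 17 (SD, n = 10). S5 held 85 and 195 reads in AGTuC, or 36.5% and 41.3% of the body level. In inAGTuC it held 6, 6, 15 and 11 reads, or 31.8%, 14.8%, 31.2% and 20.8%. Over scGRO-seq batches it ranged from 6.63% to 61.9%, with a mean of 26.2% ± 18 (SD, n = 10) from 99 reads. In S5 the scGRO-seq batches thus overlapped both other assays, while all inAGTuC libraries lay below both AGTuC libraries. In S8 AGTuC did not overlap either of the other assays. No test is given for the stretches, since the bulk reads chose them.

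The other 8 stretches held 9 to 44 AGTuC reads, 5 to 14 inAGTuC reads and 9 to 28 scGRO-seq reads each. Relative to the body level of Sall1 in the same batch, their mean scGRO-seq level was between 7.86% ± 8.53 (SD, n = 10) in S1 and 18.1% ± 24.7 (SD, n = 10) in S3. The SD over batches ran from 8.53 to 24.9 points among these 8. In inAGTuC the means ran from 6.63% ± 6.54 (SD, n = 4) in S6 to 38.9% ± 49.7 (SD, n = 4) in S7, where library Exp208_c12 was at 111% with 7 reads. In AGTuC the mean was between 6.40% ± 0.0637 (SD, n = 2) in S3 and 20.3% ± 1.31 (SD, n = 2) in S9, which lies opposite S8.

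Single-cell reads also piled up at single positions outside genes and stretches. Among 1 kb bins outside genes, the bin with most scGRO-seq reads was chr8:88993001-88994000 on the plus strand, with 72 reads. Of these, 71 came from batch Exp260b, in positions between 88993241 and 88993480, and 39 fell on 1 position, in a bin with 2 inAGTuC reads and no AGTuC read. The next such bin outside genes, chr8:89172001-89173000 on the plus strand, held 38 reads, 36 of them from Exp260b and 20 on 1 position, with 3 inAGTuC reads and no AGTuC read. Neither bin belongs to a stretch. The 434 sense reads of Sall1 were spread, with 369 positions, counted within each batch, among the 383 that lay past the starts.

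Of 2518 kept cells, 369 had a read of Sall1, 14.7% (95% Wilson interval 13.3 to 16.1), 407 a read of Sall4, 16.2% (14.8 to 17.7), and 79 a read of Sall3, 3.14% (2.52 to 3.89). These intervals cover counting error only and leave out the spread between batches. The share for Sall1 ran from 6.32% in batch Exp263 to 23.2% in batch Exp236, that for Sall4 from 7.46% in Exp208 to 26.9% in Exp246, and that for Sall3 from 0.791% to 5.67%. Batch Exp236 held 188 of the 369 cells for Sall1, 174 of 407 for Sall4 and 46 of 79 for Sall3. Without it the shares were 10.6%, 13.7% and 1.93% of 1706 cells. Cells had 1177 to 51431 UMIs with a median of 3434, and batches differed in depth per cell, whose part in these shares was not tested. Sall1 had 1 read in 322 cells, 2 in 36 and 3 to 5 in 11. In the 47 cells with more than 1 read, successive positions lay a median of 3696 bp apart, and 11 of 65 gaps were at most 100 bp. For Sall4, 46 cells had more than 1 read, with a median gap of 4816 bp and 10 of 56 gaps of at most 100 bp, and for Sall3 only 4 cells had more than 1. The shortest gap was 0 bp for Sall1 and for Sall4, so the short gaps include reads at the same position of a cell. Whether such reads are copies of 1 molecule was not tested.

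Reads of at least 1 stretch were found in 243 cells, 9.65% (8.56 to 10.9, counting error only). By batch the share ran from 2.91% to 17.7% with a median of 5.92%, and without Exp236 it was 5.80%. S5 was read in 96 cells, 52 of them in Exp236, S8 in 27, 17 of them in Exp236, and Gm3134 in 212, 102 of them in Exp236. Without that batch the share of cells with a read of S8 went from 1.07% to 0.586%. Cells with a read of Sall1 and of a stretch were compared with the number expected from the plate and the UMIs of each cell. The chance of a read was taken as proportional to the UMIs of the cell within its plate, up to 1. There were 66 cells with a read of both against 64.6 expected, above in 4 of 10 batches (exact sign-flip test over batches, p = 0.695). With S5 there were 25 against 24.4 and with S8 10 against 8.34. The difference for any stretch was thus 1.38 cells, and it changed sign between batches. Its size depends on the rule for the expected number. With shares not weighted by UMIs, given in the last part, the difference was larger and did not pass the test.

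Reads of the members met in 1 cell close to the number given by plate and UMIs under the same rule. Sall1 and Sall4 were read in the same cell 81 times against 87.1 expected (exact sign-flip test, p = 0.232), Sall1 and Sall3 22 times against 21, and Sall3 and Sall4 21 times against 20. All 14 pairs had an adjusted p of 1 by the exact sign-flip test.

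**Figure D4:**
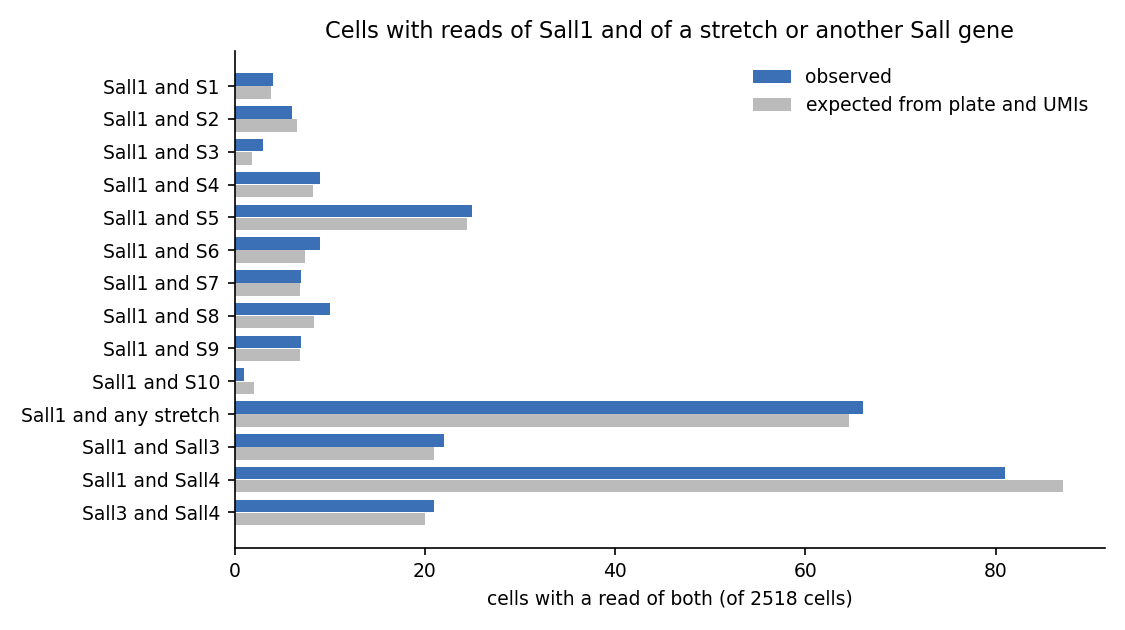
Number of the 2518 kept cells with reads of both features of a pair, observed and expected from the plate and UMIs of each cell. S1 to S10 are the stretches, numbered by position, and the bars of each pair end close together, as in 66 observed and 64.6 expected for Sall1 and any stretch.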

How the data were processed

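Each of 82 libraries was deposited by the authors as a read list, with an entry for every read that remained after duplicates were removed. Per the labels, reads were trimmed with cutadapt, mapped to mm10 with Bowtie2 and deduplicated with UMI-tools, with versions not given in the sources used here. The deposited score column is the mapping quality and was used only as a filter. Entries are on the strand opposite to their RNA, and the RNA 3′ end marks the polymerase. Every count, level and share was computed here from the entries, with no normalization by the authors.

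The 10 scGRO-seq batches used are those named in the study's plot of reads per cell, and they hold 53 libraries. Kept cells had at least 1000 UMIs and 750 features, in libraries with at least 24 such cells, which left 35 plates, 2518 cells and 11637172 UMIs. All 288 cell barcodes occurred in more than 1 library. A molecule seen in several libraries, with position, strand, barcode and UMI all equal, was dropped from all of them, between 0.32% and 67.6% of the reads of a library of these batches. The scGRO-seq list of Exp261_c16 shares 99.7% of its molecules with the inAGTuC list of that name and was set aside.

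Genes with at least 50 body reads were compared with limma 3.58.1 (voom; R 4.3.3), using all 3 assays in 1 fit. The count models made for gene tables were not used, since the deposited column is a score. Other tests were exact permutation tests between assays and exact sign-flip tests over batches, all two-sided, with Benjamini-Hochberg adjustment over the family named, computed in Python 3.11.15. Scripts were tested on simulated data. The named genes were the members, Sall2, the nearest curated neighbours of Sall1, NuRD subunits and pluripotency regulators with the 3 of most reads as examples, and the 3 genes most like Sall1 and Sall4. Members and lists were chosen with earlier results of these data known. Alternatives were other scalings, filters, read sets, windows, left-out units and batch as a block. Chromosome names and coordinates of the lists were used with GRCm38.p6, the assembly of mm10. The promoter table used here matched Sall1 and Gm3134. No column belonged to another series.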

Additional observations from a re-analysis of the deposited data

Results flagged for a closer look

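The highest inAGTuC library in the antisense level over the body of Sall1 stood apart from the other 3. It was Exp234_c11, at 2.06 reads per kb per 1000000 reads, and its gap to the next library was 0.835 of the range. The share of cells with a read of Sall3 was far higher in batch Exp236, at 5.67%, than in the other 9 batches, with a gap of 0.549 of the range. These came from 15 groups of values looked at, and chance alone singles out about 1 in 20 groups.

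The 22 scGRO-seq libraries outside the 10 batches, with 3166314 reads, entered no comparison. They held 54 sense reads of Sall1 in 18 libraries, 48 of Sall4 in 16 and 9 of Sall3 in 7. The pooled body levels there were 0.972, 0.725 and 0.0996 reads per kb per 1000000 reads.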

How the results depend on the processing

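Sall3 and the stretches rest on a few reads per unit, and AGTuC on 2 libraries of 1 batch. Sall1 and Sall4 stayed lower in scGRO-seq than in AGTuC, past the threshold, in each of the 25 alternatives with a test. Replicate numbers do not pair libraries, but batch Exp208 held scGRO-seq and inAGTuC, so batch was added as a replicate block after the data were seen. As a fixed term, with 2 residual degrees of freedom, it gave a log2 difference between these assays of 0.33 for Sall1 and called 5 genes. AGTuC is a batch of its own and has no such value. As a random term it called 4367 genes between scGRO-seq and AGTuC and 2768 between inAGTuC and AGTuC, where Sall1 (limma adjusted p = 0.0464) and Sall4 (0.0412) still passed.

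The cause of the changes below was not tested. The log2 difference of Sall4 between scGRO-seq and inAGTuC was 0.001 with limma-trend, 0.04 with median-of-ratios size factors, 0.19 with each position counted once and -0.87 within Exp208, where that of Sall1 was 0.29. That of Sall3 between scGRO-seq and AGTuC was 0.23 with median-of-ratios size factors. As a log2 ratio of mean levels it was -0.80 with the level away from genes taken off. Sall1 between inAGTuC and AGTuC was -1.14 with all deposited reads. limma-trend called 4347 genes between scGRO-seq and AGTuC, and libraries as units 6 between scGRO-seq and inAGTuC. The log2 ratio of Sall1 to Sall4 was 0.14 with all deposited reads and 0.06 with the UMI minimum alone. With the level away from genes taken off, the log2 ratios of mean levels to Sall3 were 3.39 for Sall1 and 3.41 for Sall4. For Sall4 between scGRO-seq and inAGTuC, the antisense log2 difference was 0.11 with mapping quality of at least 10 and that past the end -0.004 with each position once. The promoter share between scGRO-seq and inAGTuC differed by 0.41 points for Sall3 with 250 bp and by 0.26 for Sall1 with 1000 bp, and that of Sall1 between inAGTuC and AGTuC by 0.68 with mapping quality of at least 10. At 3 times the intergenic mean there were 16 stretches over 144 kb, and at 10 times 4 over 28 kb, each strand counted on its own. Called on inAGTuC alone there were 8, which overlapped 5 of the 10.

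Observed minus expected cells for Sall1 and Sall4 was 9.69 with unweighted shares within plates, 15.92 within batches, 4.10 with the first 10 kb of Sall1, 0.25 with mapping quality of at least 10 and -19.06 with all deposited reads, beside -6.08 as reported. For Sall1 and any stretch it was 13.55 within plates and 21.72 within batches, beside 1.38. None of these passed the exact sign-flip test, and the lowest adjusted p over the settings was 0.538, or 0.438 with a batch left out. With all deposited reads it was -1.55 for Sall1 and S5 and -4.59 for Sall1 and any stretch, with mapping quality of at least 10 it was -2.42 for Sall1 and Sall3 and -0.11 for Sall3 and Sall4, and with the UMI minimum alone -0.14 for S5 and -0.78 for any stretch.

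Leaving out 1 batch or library moved the log2 difference of Sall4 between scGRO-seq and inAGTuC from -0.43 to 0.13 and the genes called there from 0 to 32. It moved the genes called from 2769 (without the second AGTuC library) to 7436 between scGRO-seq and AGTuC and from 1350 (the same library) to 4638 between inAGTuC and AGTuC, where Sall1 ran from -1.59 to -1.39 and Sall4 from -2.07 to -1.51. The log2 difference of Sall3 ran from 0.16 to 0.98 between scGRO-seq and inAGTuC and from -1.28 to -0.46 between inAGTuC and AGTuC. The log2 ratio of Sall1 to Sall4 ran from -0.20 to 0.04. Between scGRO-seq and inAGTuC, the log2 difference past the end ran from -0.14 to 0.25 for Sall1, -0.64 to 0.42 for Sall3 and -0.38 to 0.36 for Sall4, and that of antisense reads from -0.40 to 0.57 for Sall3 and -0.41 to 0.33 for Sall4. The promoter share there ran from -5.47 to -1.89 points for Sall1, -8.43 to 2.68 for Sall3 and -2.48 to 1.44 for Sall4, and between inAGTuC and AGTuC from -2.80 to 1.14 for Sall1 and -9.79 to 2.08 for Sall3. S5 relative to Sall1 ran from -2.48 to 3.88 points between scGRO-seq and inAGTuC. Observed minus expected cells ran from -0.29 to 1.41 for Sall1 and S5, -1.38 to 2.01 for S8, -0.86 to 2.08 for any stretch, -0.73 to 3.82 for Sall3, and -1.70 to 2.44 for Sall3 and Sall4.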
